A study of Caenorhabditis elegans with 15 samples.

Results

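The genes end-1, end-3 and elt-2 encode zinc-finger proteins of the GATA class that specify and maintain the endoderm of Caenorhabditis elegans. They were taken as all probe sets that the platform annotation pairs with 1 of these symbols alone, with the brightest probe set standing for a gene, and they are 3 of the 17138 genes measured in the series. The genes end-1 and end-3 had 1 such probe set each (193618_at and 193616_at), and elt-2 had 2 (193259_at, the brighter, and 175269_at).

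The embryos came from wild-type hermaphrodites of strain N2 whose body cavity received injected double-stranded RNAs for 3 genes, lit-1, mex-1 and pal-1. The injection is meant to reduce the matching transcripts by RNA interference. The embryos were dissected from the mothers at the 2- to 4-cell stage and kept at room temperature for 0, 1, 2, 3 or 4 h before total RNA was extracted. Each time had 3 Affymetrix arrays, called A, B and C here, 15 in all. Every array carried all 3 dsRNAs, so the effect of lit-1 interference cannot be told apart from that of the others, and embryos without dsRNA were not analysed here. The age of the mothers is not given in the labels.

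In the normal embryo, the blastomere EMS divides into MS, which makes pharynx and body wall muscle, and E, which makes the whole intestine. The maternal factor SKN-1 switches on the GATA genes med-1 and med-2 in EMS, these act on end-1 and end-3 in E, and the END proteins start elt-2 and elt-7, which then drive the genes of the differentiated gut. In E a Wnt, MAPK and Src signal works through the kinase LIT-1 and its partner WRM-1 to export the repressor POP-1 from the nucleus, and without LIT-1 the E cell takes the fate of MS. MEX-1 keeps SKN-1 activity out of descendants of the anterior blastomere AB, and PAL-1 specifies the C and D lineages.

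The values are log2 expression levels after RMA, which combines background correction, normalization across arrays and a summary value per probe set. Array medians lay between 3.17 and 3.42. As a mark of background, the highest value of 15 control probe sets for bacterial sequences (dap, lys and trpn) was 3.22. A further 11 control probe sets (phe and thr) reached 3.71, and 1 more, for phe, read 4.33 to 5.98, so a value between 3.22 and 4 is near background at best. Differences were tested with limma over 22548 probe sets, with a Benjamini-Hochberg adjusted p under 0.05 as the threshold, and adjusted p-values below are from that fit. Samples of 1 time are described as independent, but separate mothers or days are not named, and the p-values then reflect only how these samples vary, which may be technical. In RNA from whole embryos, fewer cells of a type and less RNA per cell cannot be told apart.

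Both conflicting and unusual arrays lay at 1 h, the time on which most of the results below rest. Arrays 1 h B and 1 h C carry tags of 2 h and 3 h that go against their titles, and the titles were followed because the text on the design speaks of triplicates at every time. Array 1 h B also stood apart in its content. Its 5 measured yolk protein (vit) genes, which are transcribed in the adult intestine, averaged 6.90, against 3.28 and 3.25 on arrays A and C of that time and 3.11 to 4.47 over the other 14 arrays. On 1 h B 4 of the 5 lay above the background mark, as on 0 h A and 0 h B, and on each of the other arrays of 1 h only 1 did. The count thus does not set 1 h B apart from 0 h, while the mean does. Its 8 oocyte and early embryo markers averaged 5.67, against 7.74 (A) and 7.68 (C). The same markers averaged 4.18 to 4.73 on the 2 h arrays and 3.69 to 3.99 on the 3 h arrays. The lowest correlation between arrays of a time was 0.914, at 1 h. Values without 1 h B or without both conflicting arrays are given beside the main results.

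Transcripts of both END genes formed a pulse at 1 h. The gene end-1, an activator of gut fate in the E cell, read 3.79, 3.83 and 3.41 on arrays A, B and C of 0 h and 5.73, 5.22 and 6.83 on those of 1 h. The 2 h arrays gave 4.11, 3.51 and 3.80, the 3 h arrays 4.16, 3.74 and 4.02, and the 4 h arrays 3.89, 3.89 and 4.40. All 3 arrays of 1 h lay above the 12 others. Its level averaged 5.93 ± 0.82 at 1 h, against 3.68 ± 0.23 at 0 h (SD, n = 3 each), a 4.76-fold rise (adjusted p = 0.00065). At 2 h it averaged 3.81 ± 0.30, which was 4.35-fold lower than at 1 h (log2 difference -2.12 ± 0.33, SE; adjusted p = 0.0010). The means of 0, 2 and 3 h lie in the near-background range, so both folds are taken against a level that may itself be background.

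The gene end-3, which acts beside end-1 and is switched on slightly before it in the normal E lineage, read 4.47, 5.09 and 4.91 on the 0 h arrays and 5.75, 6.57 and 5.76 on the 1 h arrays. Its values were 4.76, 4.72 and 4.98 for 2 h, 4.95, 4.93 and 4.84 for 3 h, and 5.01, 5.44 and 5.05 for 4 h. Here too all arrays of 1 h lay above all others. The mean was 6.03 ± 0.47 at 1 h, against 4.82 ± 0.32 at 0 h (SD, n = 3 each), a 2.30-fold rise (adjusted p = 0.0034). By 2 h it had dropped to 4.82 ± 0.14, 2.31-fold lower than at 1 h (log2 difference -1.21 ± 0.22, SE; adjusted p = 0.0032).

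Of the 3 genes, 2 were thus called higher at 1 h than at 0 h, where 3.30% of all probe sets were called higher and 9.38% in either direction. The same 2 were called lower at 2 h than at 1 h, where 3.25% of all probe sets were called lower. A rise at 1 h followed by a fall at 2 h, both past the threshold, was found for 0.732% of all probe sets, 165 in number, and made up 22.2% of the 743 probe sets that rose. Arrays of 1 h lay wholly above those of 0 h for 15.6% of probe sets, and arrays of 2 h wholly below those of 1 h for 12.1%. Among the 612 genes called higher at 1 h the size of the rise placed end-1 229th and end-3 404th, so many genes rose further in that hour. Of the 139 genes that rose at 1 h and fell at 2 h, the fall of end-1 ranked 52nd and that of end-3 85th.

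**Figure D1:**
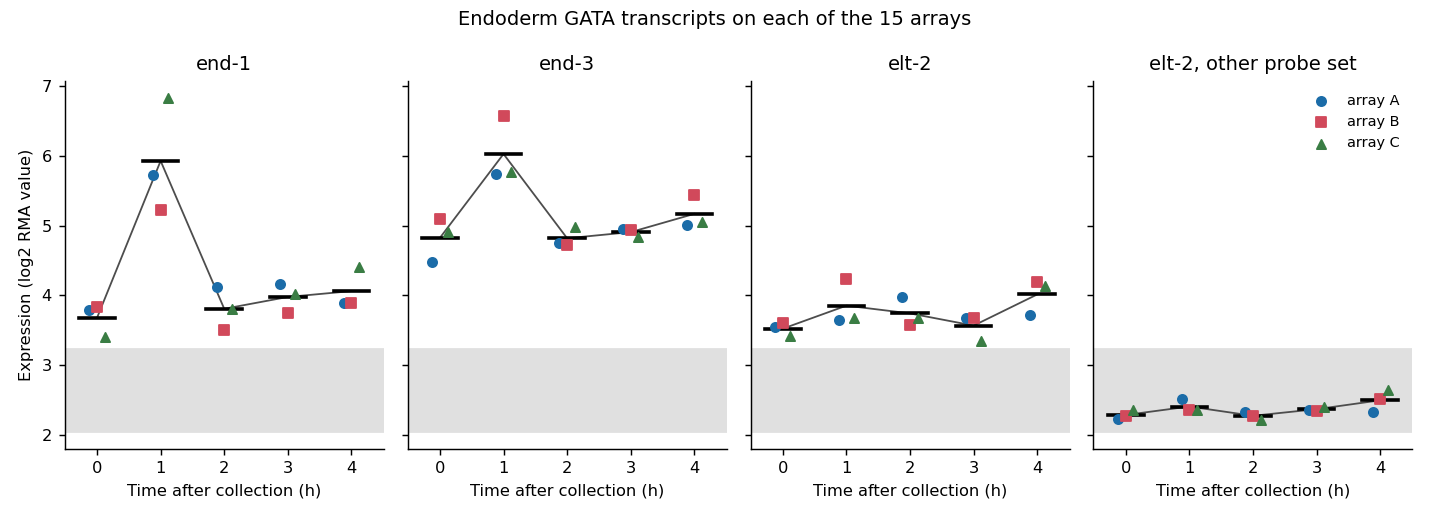
Log2 expression value of end-1, end-3 and both elt-2 probe sets (vertical axis) on each array at 0 to 4 h after collection (horizontal axis), with array A as circles, B as squares and C as triangles. Black bars join the means of 3 arrays, and the grey band is the range of the 15 background control probe sets, up to 3.22. End-1 and end-3 peak at 1 h on every array, while the second elt-2 probe set stays inside the band.

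After the pulse, both END genes stayed near their levels at 0 h. The mean of end-1 was 3.98 ± 0.21 at 3 h and 4.06 ± 0.30 at 4 h, and that of end-3 was 4.91 ± 0.059 at 3 h and 5.17 ± 0.24 at 4 h (SD, n = 3 each). Against 0 h, end-1 differed by 0.13 at 2 h (95% confidence interval -0.59 to 0.85; adjusted p = 0.93) and by 0.38 at 4 h (-0.34 to 1.10; adjusted p = 0.51). The corresponding values for end-3 were -0.0063 at 2 h (-0.49 to 0.47; adjusted p = 0.996) and 0.34 at 4 h (-0.14 to 0.82; adjusted p = 0.36). At 3 h the differences were 0.30 for end-1 (adjusted p = 0.67) and 0.08 for end-3 (adjusted p = 0.88). None of these 6 differences passed the threshold, which 15.8%, 15.9% and 16.7% of all probe sets passed at 2, 3 and 4 h against 0 h, though the intervals at 4 h leave room for a change of up to 1.10 for end-1 and 0.82 for end-3. The arrays of end-1 at 4 h all lay above those of 0 h, as did those of 20.6% of all probe sets.

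Later times against 1 h gave the same picture. The level of end-1 fell by 1.95 at 3 h (adjusted p = 0.0016) and by 1.87 at 4 h (adjusted p = 0.0019), and that of end-3 fell by 1.12 at 3 h (adjusted p = 0.0048) and by 0.86 at 4 h (adjusted p = 0.024), each on the log2 scale and relative to 1 h. Among all probe sets 4.32% were lower at 3 h than at 1 h and 5.09% were lower at 4 h than at 1 h. The difference for end-3 between 4 h and 1 h missed the threshold in 8 of 25 alternative settings, among them without 1 h B (-0.59, adjusted p = 0.060) and without both conflicting arrays (-0.58, adjusted p = 0.25). Leaving out both arrays also ended the call of end-3 at 3 h against 1 h (-0.84, adjusted p = 0.069). By mean level the times of end-1 ran 0 h, 2 h, 3 h, 4 h and 1 h from low to high, and those of end-3 ran 2 h, 0 h, 3 h, 4 h and 1 h. In both orders only the last step, between 4 h and 1 h, passed the threshold between neighbours. None of the 3 genes was called at 3 h against 2 h, at 4 h against 3 h or at 4 h against 2 h, where 2.73%, 1.26% and 5.61% of all probe sets were. Over all 5 times the F test passed for end-1 (adjusted p = 0.0010) and end-3 (adjusted p = 0.0047), as it did for 20.5% of probe sets.

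The pulse of each END gene did not rest on the same 1 h array. The highest value of end-1 was on 1 h C and its lowest 1 h value on 1 h B, whereas end-3 was highest on 1 h B. Without 1 h B, the array with the yolk transcripts, the difference between 1 h and 0 h was 2.60 for end-1 (adjusted p = 0.00017) and 0.93 for end-3 (adjusted p = 0.0071). Without both conflicting arrays, which leaves 1 h A as the single array of its time and assumes that it varies like the other times, end-1 kept a difference of 2.05 (adjusted p = 0.0017), while that of end-3 was 0.92 and missed the threshold (adjusted p = 0.058).

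When the 2 arrays were placed at 2 h and 3 h by their tags, the differences at 1 h were the same 2.05 and 0.92, but neither passed (adjusted p = 0.54 for end-1 and 0.80 for end-3). In that arrangement 1 h B, with an end-1 level of 5.22, would join 2 h arrays between 3.51 and 4.11, and 1 h C, at 6.83, would join 3 h arrays between 3.74 and 4.16. For end-3 the same arrays, at 6.57 and 5.76, would join 2 h arrays between 4.72 and 4.98 and 3 h arrays between 4.84 and 4.95. Both conflicting arrays thus read higher for both genes than every array of the time their tag names. As the 1 h peak is itself read from these arrays, this comparison cannot decide between titles and tags. Which label is right was not tested.

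**Figure D2:**
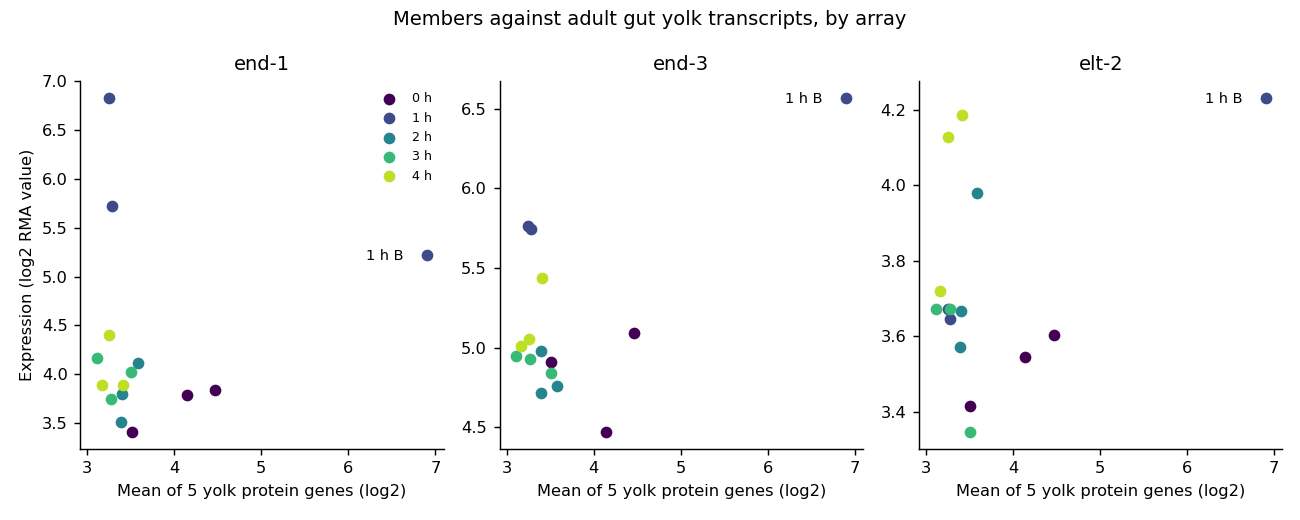
Log2 level of each endoderm gene (vertical axis, 1 panel per gene) against the mean log2 level of 5 yolk protein genes on the same array (horizontal axis), with 1 point per array coloured by time. Array 1 h B lies alone at a yolk mean of 6.90 and holds the highest end-3 and elt-2 values and the lowest end-1 value of its time.

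The gene elt-2, which encodes the GATA factor of the differentiating and adult intestine, gave no call. Its brighter probe set read 3.54, 3.60 and 3.41 on the 0 h arrays, 3.65, 4.23 and 3.67 on those of 1 h and 3.98, 3.57 and 3.67 on those of 2 h. The 3 h arrays gave 3.67, 3.67 and 3.35, and the 4 h arrays 3.72, 4.19 and 4.13. All 15 values exceeded the mark of 3.22, but 10 of them lay at or under the 3.71 that other control probe sets reached. The 3 highest were on 1 h B, 4 h B and 4 h C.

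In the order of time its means were 3.52 ± 0.096, 3.85 ± 0.33, 3.74 ± 0.21, 3.56 ± 0.19 and 4.01 ± 0.25 (SD, n = 3 each). Sorted by mean, the times ran 0 h, 3 h, 2 h, 1 h and 4 h, with no neighbours differing past the threshold. The interval of the difference between 1 h and 0 h was -0.07 to 0.73, and that between 4 h and 0 h was 0.09 to 0.89 on the log2 scale. Without 1 h B the difference between 1 h and 0 h was 0.14 (adjusted p = 0.84), against 0.33 with it, and the remaining 1 h arrays, at 3.65 and 3.67, lie below the 2 h mean in that order. All arrays of 4 h lay above all arrays of 0 h, as for 20.6% of probe sets, but the adjusted p of 0.099 missed the threshold, where 7.11% of all probe sets were called higher and 16.7% in either direction. The F test over the 5 times gave an adjusted p of 0.29.

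The elt-2 difference between 4 h and 0 h, not called as reported, passed upwards in 3 of 26 alternative settings and turned negative in 2. It passed without 1 h B (difference 0.49, adjusted p = 0.043), an array that enters this comparison only through the shared spread and the adjustment, and without 4 h A (0.64, adjusted p = 0.044). It also passed with limma's array weights (0.51, adjusted p = 0.025), in which 1 h B had the lowest weight of the 15 arrays, 0.243. The second elt-2 probe set stayed between 2.21 and 2.64, under the background mark on all 15 arrays, and its level differed by 0.21 between 4 h and 0 h (adjusted p = 0.19). Array 1 h B, where elt-2 read highest at 4.23, also had the highest act-5 (8.62) and asp-1 (7.79), for the actin of the gut brush border and a gut protease, beside the yolk transcripts. Gut transcripts did not all peak there. The gut gene ges-1 did (3.50), while cpr-1 and elt-7 were highest on 4 h B (3.96 each) and pho-1, under the background mark throughout, on 2 h A. The part of the act-5, asp-1 and yolk transcripts in the elt-2 value was not tested.

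The levels of the 3 genes varied together only in part. Over the 15 arrays, which share their normalization and the 1 h peak, Pearson's r was 0.716 between end-1 and end-3, 0.527 between end-3 and elt-2 and 0.212 between end-1 and elt-2. Without 1 h B these were 0.792, 0.262 and 0.087. Over the 12 arrays outside 1 h they were 0.201, 0.553 and 0.560, so the order of the pairs was then another.

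Set against the rest of the GATA family, 9 of whose 11 listed genes were measured (elt-4 and med-2 were not), end-1 and end-3 were the 2 called at 1 h against 0 h. Without 1 h B med-1 was called as well, and without both conflicting arrays end-1 alone. The list's median difference was 0.23, beside 0.083 over all probe sets. The gene med-1, the immediate activator of the END genes in EMS, read 3.28, 3.08 and 3.15 at 0 h, 3.62, 3.31 and 4.27 at 1 h and 2.81, 2.53 and 2.70 at 2 h. Its difference of 0.56 between 1 h and 0 h missed the threshold (adjusted p = 0.11). From there med-1 fell by 1.06 at 2 h (adjusted p = 0.0038), the third GATA gene called lower in that hour. Its means of 3.17 at 0 h and 2.68 at 2 h lie under the background mark, so the difference is taken against background. The copies med-1 and med-2 are nearly identical, so a probe set named for one may read both.

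Of the other GATA genes, elt-1, which specifies epidermis, was the only one called higher at 2 h than at 1 h, as 6.00% of all probe sets were. It averaged 6.82 ± 0.73 at 2 h, against 4.86 ± 0.38 at 1 h (SD, n = 3 each), a difference of 1.95 (adjusted p = 0.0031). The gene elt-7, which works beside elt-2 in the gut, had means from 3.29 to 3.54 and was called in none of the 10 comparisons of times. The epidermal gene elt-3 had a difference of 0.92 between 4 h and 0 h (adjusted p = 0.16), and elt-6 and egl-18 had 0.42 and -0.036 (adjusted p = 0.49 and 0.94). A dimmer egl-18 probe set passed at 1 h against 0 h (1.46, adjusted p = 0.049), and its brighter one did not (0.23, adjusted p = 0.56). At 4 h against 0 h, 0 of the 9 GATA genes were called, where 16.7% of all probe sets were. With so few genes, a count of 0 says little about the family.

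**Figure D3:**
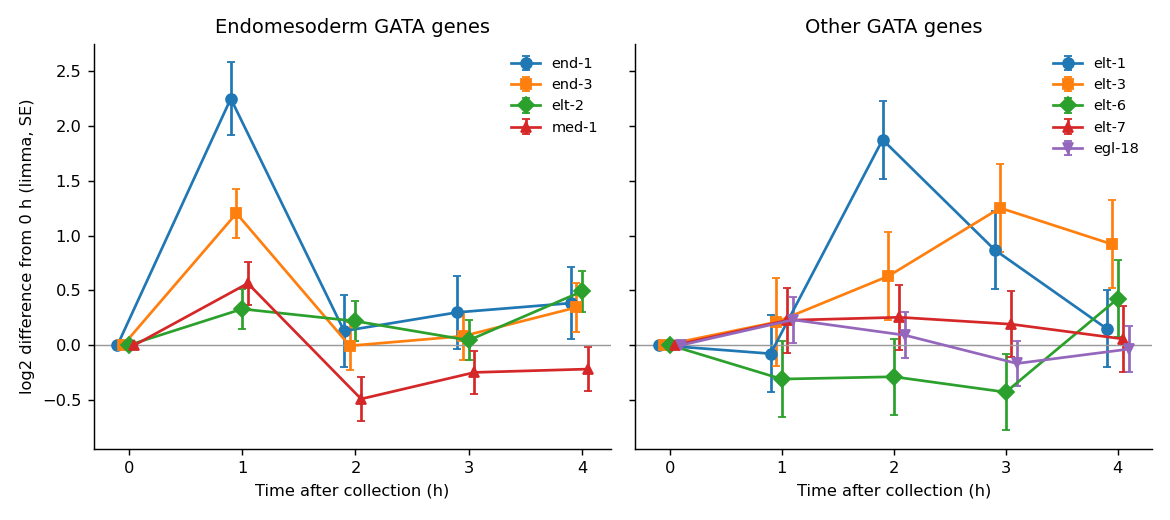
Log2 difference from 0 h (vertical axis; points with the SE of the limma fit) at 0 to 4 h (horizontal axis) for the endomesoderm GATA genes on the left and the other measured GATA genes on the right. The END genes peak at 1 h, med-1 is highest at the same time, and elt-1 peaks at 2 h.

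Upstream of the END genes, transcripts of SKN-1 and of the Wnt, MAPK and Src route were called only downwards at the time of the pulse. Of 19 measured genes of 20 listed, 0 were higher and 3 were lower at 1 h than at 0 h, where 6.08% of all probe sets were lower. Those were skn-1 (-1.50, with a 1 h mean of 2.88 under the background mark), the Wnt ligand mom-2 (-2.30) and the 14-3-3 gene par-5 (-0.87), which helps move POP-1 out of the nucleus. Only mom-2 was still called without 1 h B. Neither dimmer skn-1 probe set passed at 1 h (-0.67 and -0.58, adjusted p = 0.088 and 0.11). For par-5 a dimmer probe set passed (-0.97, adjusted p = 0.039) and another did not (-1.10, adjusted p = 0.25). The list's median difference was -0.20, beside 0.083 over all probe sets.

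The injected lit-1 read between 3.70 and 4.59 on the 15 arrays, and its level at 4 h was 0.49 above that at 0 h without passing the threshold (adjusted p = 0.074). With no array from embryos lacking the dsRNA, these values do not check the interference. Transcript of pop-1, the repressor that LIT-1 acts on, had a mean of 2.94 at 1 h, against 2.58 at 0 h, both under the background mark, and was not called (adjusted p = 0.37).

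At 2 h against 1 h, as the END genes fell, 4 of the 19 rose, where 6.00% of all probe sets were called higher. These were tap-1 (3.41), a regulator of the MAPK branch, wrm-1 (1.96, from a 1 h mean of 2.76 under the background mark), the beta-catenin partner of LIT-1, the Frizzled receptor gene mom-5 (1.82) and sys-1 (1.47), the beta-catenin that turns POP-1 into an activator. In the same step mom-2 fell by 2.84, where 3.25% of all probe sets were called lower. Without 1 h B mom-5 no longer passed, and without both conflicting arrays tap-1 was the 1 gene of these 4 that did. Between 4 h and 0 h, tap-1 and wrm-1 were higher and skn-1, mom-2 and par-5 were lower. Of all probe sets 7.11% were called higher and 9.57% lower there. The dimmer wrm-1 probe set missed the threshold between 4 h and 0 h (0.77, adjusted p = 0.22). For skn-1 a dimmer probe set passed (-0.65, adjusted p = 0.041) and another did not (-0.64, adjusted p = 0.071). The same held for par-5, with -1.97 (adjusted p = 0.00017) and -0.37 (adjusted p = 0.70).

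Most genes of a list of maternal regulators, drawn up around limits on SKN-1 but also holding glp-1 and spn-4, fell over the 4 h. A direct action of each on SKN-1 is not implied. Of 13 listed and measured, 5 were lower at 1 h than at 0 h, where 6.08% of all probe sets were, and 9 were lower at 4 h, where 9.57% were, with a median difference of -4.14 at 4 h beside 0.094 over all probe sets. The P-lineage repressor gene pie-1 was lower by 1 h (-3.30), as was mex-3 (-2.98), a KH-domain translational regulator. For pos-1, whose protein binds maternal transcripts, the difference was -0.90 at 1 h against 0 h (adjusted p = 0.29), and it fell by 4.25 from there at 2 h. The genes eel-1, efl-1 and mbk-2 were called in none of the 10 comparisons. The injected mex-1 was called once, higher at 3 h than 0 h by 2.10 (adjusted p = 0.036), a call lost in 10 of 25 settings. Without 1 h B the counts stayed at 5 and 9, and without both conflicting arrays they were 4 and 9.

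The sister fate of E has its own regulators, and of 10 genes listed for MS and its tissues 3 rose at 1 h, where 3.30% of all probe sets did. The list includes pal-1, an injected gene that also acts in the C and D lineages, which was not called at 1 h (1.69, adjusted p = 0.21). The 3 were sdz-1 (8.66), a SKN-1-dependent zygotic transcript, the homeobox gene ceh-51 (5.06) and the T-box gene tbx-35 (0.97), which acts above ceh-51. The list's median difference was 0.87. At 2 h against 1 h, sdz-1 (-7.23) and tbx-35 (-0.91) fell, as end-1 and end-3 did, while ceh-51 (2.18) and the muscle gene hnd-1 (2.97) rose. In that step 3.25% of all probe sets were called lower and 6.00% higher. The difference between the END genes and these MS genes was not itself tested, and levels of different probe sets are not comparable. The means of tbx-35 were 2.47 at 0 h, 3.44 at 1 h and 2.53 at 2 h, with the first and last under the background mark, so its differences are taken against background. Both its rise and its fall missed the threshold without both conflicting arrays, by the tags and with centring on hybridisation controls, and the direction of the rise turned in the last of these.

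On the arrays of 1 h, ceh-51 read 9.77 on A, 7.67 on B and 10.17 on C. Thus end-1, med-1 and ceh-51 shared 1 order of these arrays, C highest and B lowest, while end-3 and elt-2 were highest on B. The order of tbx-35 was another, with 3.02 on A, 3.53 on B and 3.76 on C.

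Downstream of the END genes, the gut differentiation genes were called at shares near or below those of all probe sets. Of 38 measured of 39 listed, 0 were higher and 2 lower at 1 h, where 3.30% of all probe sets were higher and 6.08% lower, and at 4 h against 0 h 2 were higher and 2 lower, where 7.11% of all probe sets were higher and 9.57% lower. Without 1 h B the counts were 1 higher (lmp-1) and 0 lower at 1 h, and 3 higher (with ifc-2, a gut filament gene) and 2 lower at 4 h. The lysosomal gene lmp-1 (1.41) and gem-4 (3.06), a copine, were the higher, and spl-1 (-1.32), for an enzyme of sphingolipid breakdown, and erm-1 (-0.71), for a membrane-cytoskeleton linker of the gut lumen, were the lower. The median difference of the list at 4 h was 0.030, beside 0.094 over all probe sets.

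Time means of 11 of the 38 lay under the background mark at every time. The gut esterase gene ges-1 had means of 3.01 to 3.25 and the gut intermediate filament gene ifb-2 of 3.13 to 3.27, close to that mark throughout. Of the 5 gut marker genes elt-2, elt-7, ges-1, ifb-2 and act-5, 0 were called in any of the 10 comparisons. The F test over the 5 times passed for 0 of them and for 20.5% of all probe sets. With the arrays placed by their tags, pie-1 was the 1 gene of these 5 lists called at 1 h against 0 h, and 0 were called at 2 h against 1 h. The mean of the 5 gut markers was 4.67 on 1 h B, against 3.41 to 3.90 over the other 14 arrays. Most of that gap came from act-5, at 8.62 on 1 h B and 4.54 to 5.32 on the others. On 1 h B elt-2, elt-7 and ges-1 read 4.23, 3.76 and 3.50, and elt-7 was higher on 4 h B (3.96).

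**Figure D4:**
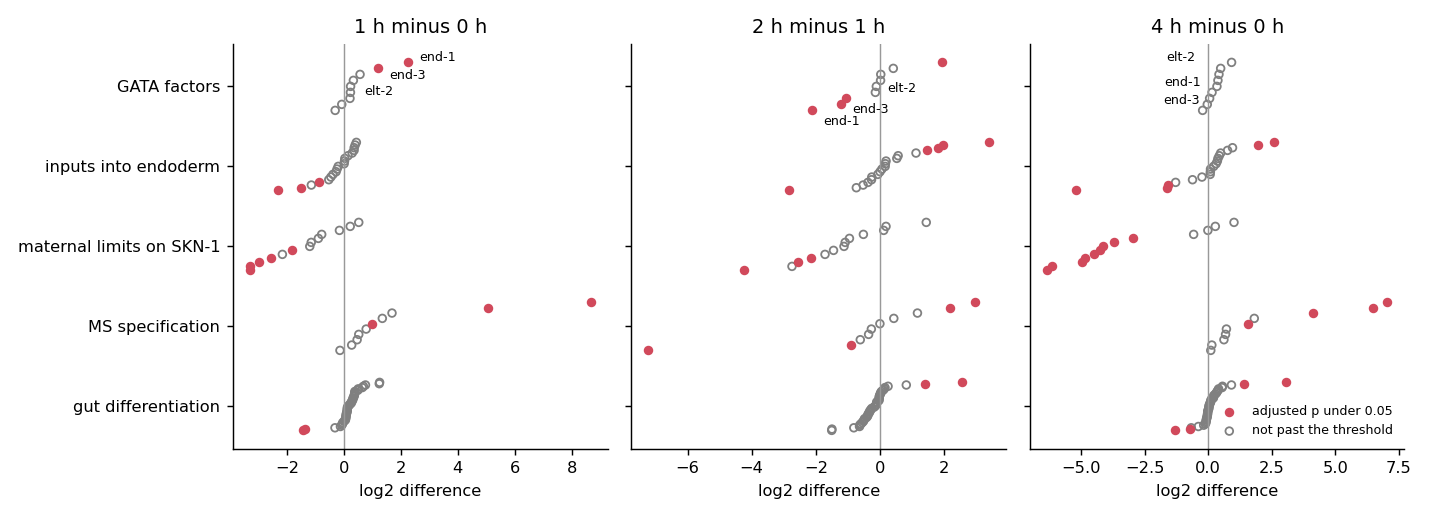
Log2 difference of each gene of 5 lists (rows) at 1 h minus 0 h, 2 h minus 1 h and 4 h minus 0 h (panels, horizontal axis), with filled points for an adjusted p under 0.05 and open points otherwise. At 1 h the END genes are the 2 filled points of the GATA row. The genes listed under maternal limits on SKN-1 lie mostly to the left. In the gut differentiation row no filled point lies to the right at 1 h minus 0 h, while gem-4 and lmp-1 do in both other panels.

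The genes whose levels over the 15 arrays were most like those of a member were taken by Pearson's r among 11203 other genes with a time mean above the background mark. Closest to end-1 were F27B3.6 (r = 0.958), Y5H2B.3 (0.954), cln-3.3 (0.952), Y57A10B.6 (0.947), sdz-20 (0.944) and nssp-18 (0.940). As end-1 itself peaks at 1 h, the choice fixes that these genes do too, and the difference between 1 h and 0 h ran from 1.01 for nssp-18 to 3.53 for Y57A10B.6 on the log2 scale. The name of sdz-20 marks it, like sdz-1, as a SKN-1-dependent zygotic transcript. Leaving out 1 h B moved none of these 6 below r = 0.935. The means of F27B3.6, Y5H2B.3, sdz-20 and nssp-18 exceeded the background mark at 1 h alone, so only that time brought them into the comparison.

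For end-3 the closest were Y116A8C.7 (r = 0.928), K09E4.1 (0.911), idpa-3 (0.902), catp-1 (0.896), srj-11 (0.895) and nspd-9 (0.892), and without 1 h B they had r between 0.744 and 0.831. Between 1 h and 0 h they differed by 0.36 (catp-1) to 2.57 (Y116A8C.7), a direction that the choice fixes here too. Only Y116A8C.7 and nspd-9 were called at 1 h against 0 h (adjusted p = 0.00030 and 0.025). The means of srj-11 and nspd-9 exceeded the background mark at 1 h alone. For elt-2 they were K09H11.4 (r = 0.936), clec-20 (0.925), nssp-50 (0.914), nssp-54 (0.910), col-45 (0.904) and unc-4 (0.903). Between 4 h and 0 h they differed by 0.39 (unc-4) to 0.73 (col-45), again in the direction of the gene they were chosen by. No gene was shared among the 3 sets.

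The genes end-1 and end-3 are near neighbours on 1 chromosome, with 4 protein-coding genes between them in the RefSeq gene order. Of those, droe-4 read 6.06, 5.38 and 6.26 at 1 h, against 3.27, 3.89 and 4.00 at 0 h, with no overlap. It rose by 2.18 ± 0.35 (SE; adjusted p = 0.0012) and fell by 1.30 at 2 h relative to 1 h (adjusted p = 0.033), a pulse like that of the END genes on either side. Next to end-1, ric-7, needed for neuropeptide release, was lower at 1 h than at 0 h (-1.02, adjusted p = 0.0025). Its mean went from 4.00 at 0 h to 2.99 at 1 h, under the background mark. The helicase gene ddx-17 was not called (-0.90, adjusted p = 0.12), and the fourth, aip-1, had no probe set of its own. On the far sides, eol-1 beside end-1 differed by 0.28 (adjusted p = 0.15) and srh-308 beside end-3 by 0.18 (adjusted p = 0.52) between 1 h and 0 h. Beside elt-2, C33D3.3 had a difference of 0.42 between 4 h and 0 h (adjusted p = 0.12).

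The differences are relative to all probe sets, whose median difference was within 0.1 under the deposited scaling. Centring on the hybridisation controls moved the median of all probe sets to -1.10 at 1 h against 0 h, 0.38 at 2 h against 1 h and -0.86 at 4 h against 0 h. Relative to that median the member differences were unchanged by construction, at 2.17 for end-1 and 1.12 for end-3 at 1 h against 0 h, and 0.40 for elt-2 at 4 h against 0 h. On that scale without the median taken off, end-1 at 1 h was 1.07 above 0 h and end-3 0.019, with neither past the threshold. Centring on 75 ribosomal protein genes moved the median of all probe sets to -0.22 at 1 h and -1.24 at 4 h, each against 0 h, and kept both END rises (1.95 and 0.90 past the threshold). At 4 h against 0 h elt-2 was -0.84 with ribosomal protein genes and -0.47 with hybridisation controls, and both END genes were also negative. These signs follow from the shift of all probe sets, since relative to the median elt-2 stayed at 0.40, end-1 at 0.29 and end-3 at 0.25 under both.

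**Figure D5:**
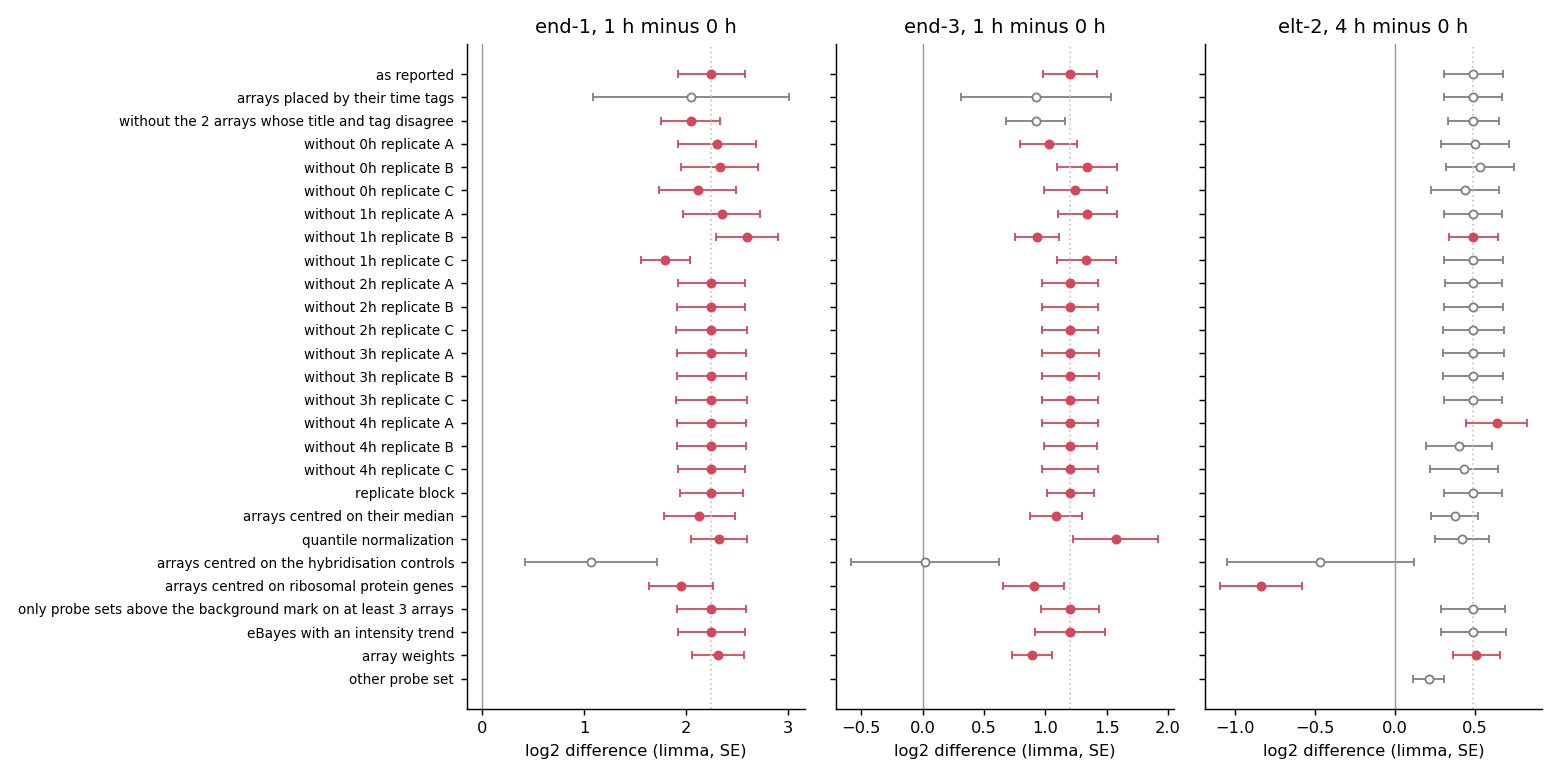
Log2 difference (horizontal axis; points with the SE of the limma fit) of end-1 and end-3 at 1 h minus 0 h and of elt-2 at 4 h minus 0 h under each setting (rows), filled where the adjusted p was under 0.05. The dotted line is the value as reported. End-1 stays between 1.07 and 2.60, end-3 reaches 0.019 with hybridisation controls, and elt-2 passes upwards in 3 settings and downwards in 1.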

How the data were processed

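Total RNA of 15 samples was hybridised to 1-colour Affymetrix arrays. The authors' deposited table holds log2 values of 22625 probe sets. The submitters' processing notes name RMA and give no version for it. That the scale is log2 follows from the values, 1.77 to 14.2. RMA compresses low values, so changes near background are understated. Detection calls were not used. The number of arrays limits the precision.

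Arrays were grouped by title. With 77 control probe sets left out, 22548 entered 1 linear model of 5 times in limma 3.58.1 under R 4.3.3 (lmFit, eBayes, F test, Benjamini-Hochberg threshold 0.05), checked on simulated data. Symbols of the 20810 probe sets with 1 symbol were updated through the WBcel235 RefSeq gene table. Another 843 had several and 895 none. No coordinates or sequences are given. Columns left unassigned numbered 0, and 0 array pairs were identical.

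Named were the 3 members, the genes of 5 pathway lists and of marker lists for gut, yolk, and oocyte and early embryo, the 6 genes most correlated with each member, and gene-order neighbours, the last chosen after values were seen. The members and lists were chosen with earlier results of these data known. Alternatives covered grouping, scaling, filter, spread, weights, single arrays, the replicate letters as a block and, added after seeing the data, 3 further pairs of times and list counts without doubtful arrays.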

Additional observations from a re-analysis of the deposited data

How the results depend on the processing

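Each difference was recomputed under 25 alternative settings (26 for elt-2), and where a call or direction changed the cause was not tested unless stated. The rise of end-1 at 1 h and its fall at 2 h kept their calls in 23 of 25, the rise of end-3 in 22 and its fall in 23. With arrays placed by their time tags, the 1 h differences were 2.05 for end-1 and 0.92 for end-3, those at 2 h against 1 h -1.57, -0.49 and 0.22 (elt-2), and the F test gave adjusted p of 0.65 and 0.89. There end-3 at 2 h against 0 h was 0.43 and at 3 h against 2 h -0.14, end-1 at 4 h against 3 h -0.63, and 4 h against 2 h -0.10 for end-1 and -0.088 for end-3. A 1 h group of 1 array leaves fewer samples. Without both conflicting arrays end-3 was 0.92 at 1 h (F test 0.079), and elt-2 0.094 at 2 h against 1 h.

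Centring on the hybridisation controls shifts all probe sets together. It gave end-1 1.07 at 1 h, -0.60, -0.91 and -0.58 at 2, 3 and 4 h against 0 h, -1.67 at 2 h against 1 h, -0.31 at 3 h against 2 h and 0.16 in the F test. For end-3 it gave 0.019 at 1 h, -1.13 and -0.61 at 3 and 4 h against 0 h, -0.76 at 2 h against 1 h, -0.39 at 3 h against 2 h and 0.52 in the F test. For elt-2 it gave -0.85, -0.51, -1.17 and -0.47 at 1 to 4 h against 0 h and 0.34 at 2 h against 1 h. Centring on ribosomal protein genes gave end-1 -1.21, -0.91 and -0.95, end-3 -1.34, -1.13 and -0.99 and elt-2 -1.12, -1.17 and -0.84 at 2, 3 and 4 h against 0 h. It also gave end-1 -0.035 at 4 h against 3 h, and elt-2 -1.15 at 2 h against 1 h, -0.87 at 4 h against 1 h and 0.00041 in the F test. These genes rose with time, and 20830 probe sets were then called at 4 h against 0 h. Small differences also changed sign: end-3 at 2 h against 0 h (0.064) and elt-2 at 3 h against 0 h (-0.015) with quantile normalization, elt-2 at 3 h against 0 h with median centring (-0.030), end-1 at 4 h against 3 h (-0.037) and end-3 at 3 h against 0 h (-0.00042) with array weights, and elt-2 at 2 h against 0 h (-0.012) and at 3 h against 2 h (0.095) with its other probe set. Array weights called elt-2 at 4 h (0.51).

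Leaving out 1 array at a time kept every call of the END genes in the planned comparisons. The ranges were 1.80 to 2.60 (end-1) and 0.93 to 1.34 (end-3) at 1 h against 0 h, -2.47 to -1.67 and -1.35 to -0.94 at 2 h against 1 h, and -0.025 to 0.28 and -0.18 to 0.13 at 2 h against 0 h. End-1 had -0.087 to 0.18 at 4 h against 3 h, end-3 -0.095 to 0.22 at 3 h against 0 h, and elt-2 -0.011 to 0.15 at 3 h against 0 h, -0.23 to 0.080 at 2 h against 1 h and 0.40 to 0.64 at 4 h against 0 h, where it passed without 1 h B or 4 h A.
With a replicate block for the letters A to C, the 1 h differences were 2.25 (adjusted p = 0.00096) and 1.20 (adjusted p = 0.0024), and elt-2 at 4 h 0.49 (adjusted p = 0.11). It changed no member's call. Over 30 pairs of arrays of the same letter at different times the mean correlation of deviations was -0.0028, with 7 above 0.1. Over 60 pairs of different letters it was 0.0047, with 20 above 0.1. Same-letter pairs ranged from -0.31 to 0.34, so the mean shows no common pairing by letter but cannot exclude one for some arrays. The count of probe sets called at 1 h against 0 h was 2114, against 347 by the tags, 1126 without both conflicting arrays and 3312 with array weights. At 2 h against 1 h it was 2087, against 1 by the tags, 845 with hybridisation controls, 19272 with ribosomal protein genes and 3854 with array weights. The F test gave 4630, against 2193 by the tags. Signal near background limits what can be said of elt-2, of the gut genes and of end-1 outside 1 h, including its return to the level of 0 h. The means of end-3 outside 1 h, 4.82 to 5.17, lay within the 4.33 to 5.98 that 1 phe control probe set read. So did its values on 1 h A (5.75) and 1 h C (5.76). How much of the end-3 level is background was not tested.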
